A study of Mus musculus with 4 samples.

Results

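The 35 genes described here are the tumour suppressor gene Trp53, its best known transcriptional targets and regulators, and the cell cycle inhibitors Cdkn2a and Cdkn2b that mark senescent cells. They were found by gene symbol in the deposited tables, and each symbol stood on 1 of the 55467 gene IDs. The genes were compared between primary cortical astrocytes of CD38 knockout (CD38 KO) mice and those of wild-type (WT) mice, with 2 libraries of each genotype. The growth protocol describes cultures from newborn cortex kept for 14 days in medium with 10% serum and shaken for 12 h to remove loose cells. What stayed attached was plated anew and collected after 5 more days. CD38 is a surface enzyme that consumes NAD+. The labels do not give the strain of either genotype, the deleted exons, or whether libraries came from separate animals or cultures. P-values therefore measure only the spread between these libraries, which may be technical.

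The protein p53 is a transcription factor that is kept low by the ubiquitin ligase MDM2 and its partner MDM4. Damage to DNA and other stress free it, and it then activates genes that halt the cell cycle, repair DNA, adjust metabolism or trigger death. MDM2, cyclin G1 and the phosphatase encoded by Ppm1d are themselves p53 targets and form a feedback loop. In cultured astrocytes, as in other primary mouse cells, serum and oxygen are known to raise the products of Cdkn2a and Cdkn1a over time. The 35 genes were split by role into 5 genes of p53 and its feedback, 9 of arrest, 13 of death, 5 of repair and 3 of metabolism and redox balance.

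The values are FPKM, mapped fragments scaled to transcript length and to library total, so levels of different genes are compared per length. Steps in the low values give an estimated 29024000 and 29102000 fragments for the CD38 KO libraries, against 26846000 and 28258000 for the WT libraries. The targeted gene Cd38 was at 0.0222 FPKM in both CD38 KO libraries and at 3.13 and 3.45 FPKM in the WT libraries. Across genes the libraries correlated at r = 0.985 within CD38 KO, 0.99 within WT and 0.964 to 0.968 between genotypes. Astrocyte markers were high as a sum in all libraries, though not each of them. The 12 markers fixed as a list summed to 4469 and 4420 FPKM in CD38 KO, against 5448 and 5387 FPKM in WT. Gfap and Glul gave the largest parts, with means of 1211 and 1214 FPKM in CD38 KO and 1360 and 1677 FPKM in WT. The untested astrocyte marker, Gjb6, was at 0.0889 and 0.302 FPKM in CD38 KO and at 0.538 and 0.438 FPKM in WT. Of the 11 tested 2 were higher, 7 lower and 2 not called. Aldoc alone was called in every fit that leaves out 1 library. Markers of microglia and macrophages, the phagocytes of the brain, summed over 16 genes to 816 and 724 FPKM in CD38 KO and to 120 and 107 FPKM in WT. All 15 tested ones were higher, at a median log2 change of 2.34, none of the 16 was at 0 in any library, and all but Tmem119 were called in every fit without 1 library. The untested marker, P2ry12, was at 0.528 and 0.606 FPKM in CD38 KO and at 0.243 and 0.633 FPKM in WT. Of the microglia and macrophage sums, Lyz2 alone gave 429 and 375 FPKM in CD38 KO and 66.5 and 56.3 FPKM in WT. Cx3cr1, Itgam and Tmem119 had WT means of 0.527, 0.844 and 0.494 FPKM. They reached the mean of 1 FPKM needed for testing only through their CD38 KO values. The difference in microglia and macrophage markers stands beside every result below, and its part in them was not tested. In these bulk cultures a change in the share of a cell type cannot be told apart from a change of RNA per cell.

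More of these genes were higher than lower in CD38 KO. Of the 35 genes, all of which had a mean of at least 1 FPKM and were tested, 14 rose, 1 fell and 20 did not pass the test. The test was limma on log2(FPKM + 1) with Benjamini-Hochberg adjustment at 0.05 over all 13064 tested genes, of which 8.00% were called higher and 6.35% lower, 14.4% in all. The median log2 change was 0.20 over the 35 genes and 0.00 over all tested genes. Both CD38 KO libraries lay above both WT libraries for 24 of the 35 genes and below them for 5, while the genotypes overlapped for 6. Over all tested genes the first pattern held for 30.4% and the second for 29.5%. Most differences were small: among the 14 that rose, only Mdm2 and Pmaip1 were above 2-fold in mean FPKM. None of the 35 genes lies on chromosome 5, which carries Cd38. Whether genes of the other lists lie there was not examined.

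**Figure D1:**
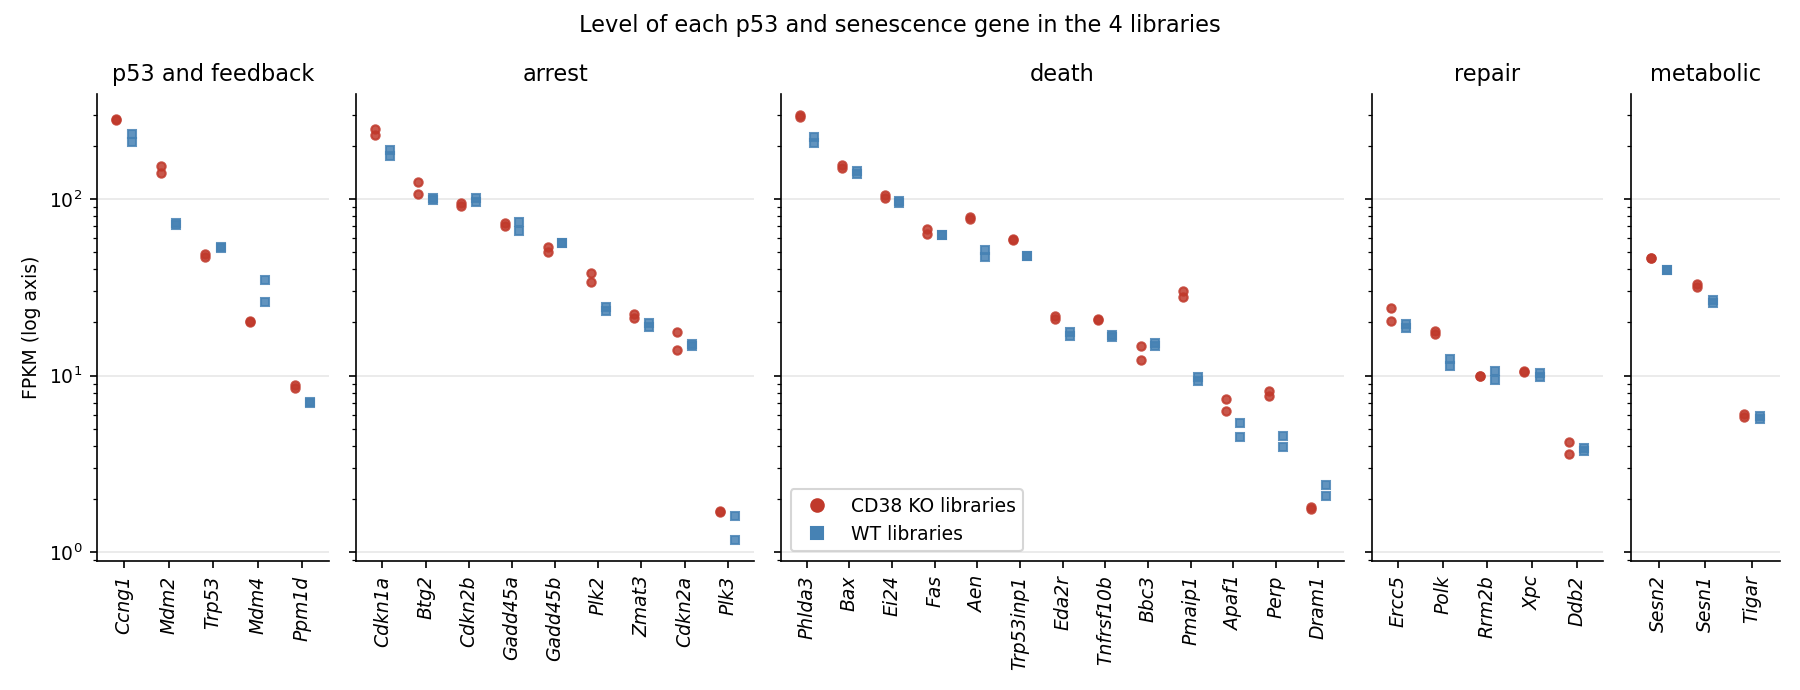
FPKM (log axis) of each of the 35 genes in the 2 CD38 KO libraries (circles) and the 2 WT libraries (squares), by role and ordered by WT level. The CD38 KO points of Mdm2, Pmaip1, Aen and Perp stand clear above the WT points, while those of Mdm4 stand below them.

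**Figure D2:**
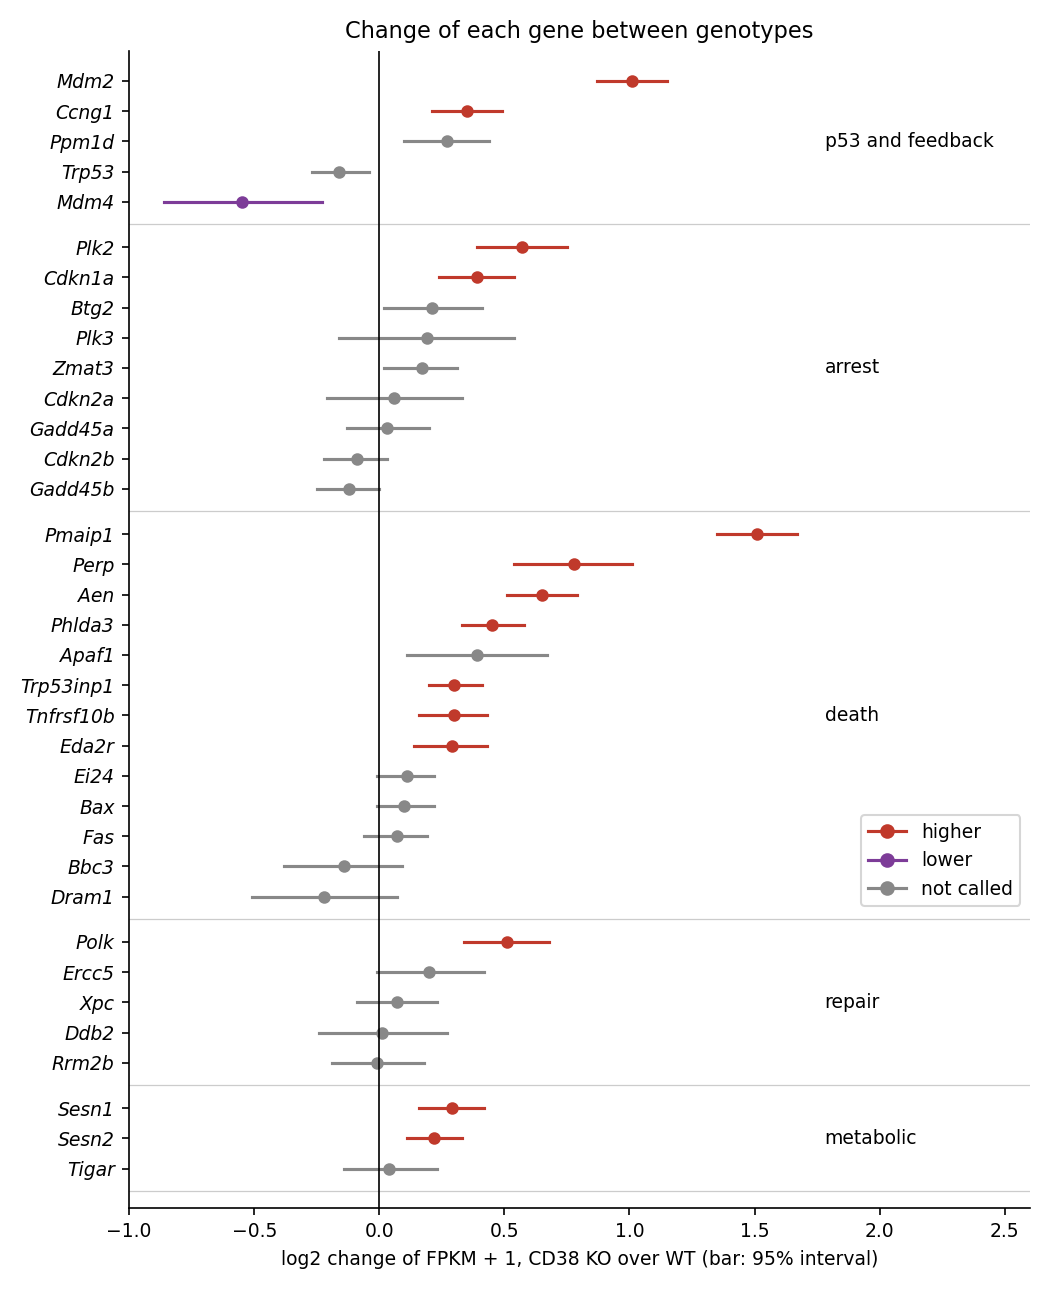
Log2 change of FPKM + 1, CD38 KO over WT, for each gene with its 95% interval from limma (n = 2 libraries each), by role. Changes run from -0.55 for Mdm4 to 1.51 for Pmaip1, and 7 of the 13 death genes were called higher.

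Of the 5 genes of p53 and its feedback, 2 rose and 1 fell, and the level of Trp53 itself did not pass the test. Trp53 (chromosome 11, 69580359 to 69591873, GRCm38) was at 48.6 and 46.7 FPKM in the CD38 KO libraries and at 53.1 and 53.5 FPKM in the WT libraries. Both CD38 KO values lay below both WT values, at a log2 change of -0.16 (95% interval -0.27 to -0.04, limma adjusted p = 0.0788). Mdm2 (chromosome 10, 117688875 to 117710758), whose product marks p53 for destruction, had 153 and 140 FPKM in CD38 KO, against 71.3 and 73.2 FPKM in WT. The groups were far apart, with means of 147 ± 9.66 and 72.3 ± 1.37 FPKM (SD, n = 2 each) and a 2.03-fold ratio (log2 change 1.01, SE 0.06, limma adjusted p = 0.000373). Only 297 of the 13064 tested genes had a log2 change as high as that of Mdm2.

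Mdm4 (chromosome 1, 132959484 to 133030561), the MDM2 relative that blocks p53 without marking it for destruction, went the other way. Its level was 20.5 and 20.2 FPKM in CD38 KO and 26.2 and 34.7 FPKM in WT. The CD38 KO libraries nearly coincided and the WT libraries were apart, so that Mdm4 fell by 0.55 on the log2 scale (SE 0.13, limma adjusted p = 0.043). The log2 change was -0.35 without WT 2 and -0.74 without WT 1. Mdm2 transcripts were thus 7.49 and 6.91 times as abundant per length as Mdm4 transcripts in CD38 KO, against 2.72 and 2.11 times in WT. Ccng1, which encodes cyclin G1, a partner of the phosphatase PP2A that acts on MDM2, was at 283 and 281 FPKM in CD38 KO and 232 and 211 FPKM in WT. It rose 1.27-fold (log2 change 0.35, SE 0.06, limma adjusted p = 0.0139). Ppm1d, the phosphatase WIP1 that switches off the damage response, was at 8.91 and 8.57 FPKM in CD38 KO and at 7.04 and 7.10 FPKM in WT. The genotypes did not overlap for Ppm1d, but its change of 0.27 missed the threshold (limma adjusted p = 0.0545). Mdm2 was called in each of the 4 fits that leave out 1 library, whereas Mdm4 and Ccng1 lost their calls without CD38 KO 1, without CD38 KO 2 and without WT 2 (limma adjusted p up to 0.216 and 0.122). Neither was called without a filter on low values (limma adjusted p = 0.177 for Mdm4 and 0.0859 for Ccng1) or with moderation without trend (0.0876 and 0.0512).

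**Figure D3:**
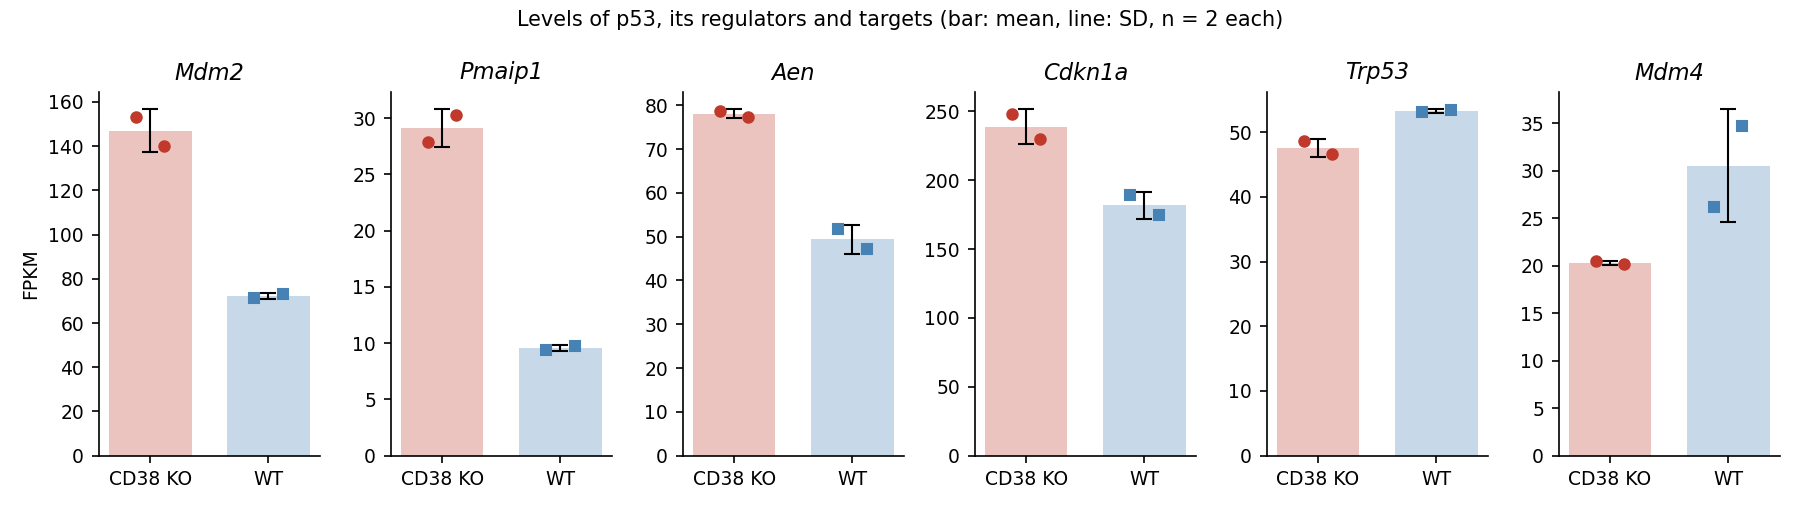
FPKM of 6 genes in CD38 KO and WT libraries, each panel with its own axis from 0; bars are means, lines SD (n = 2 each) and points the libraries. Mdm2 and Pmaip1 stand at 147 and 29.1 FPKM in CD38 KO, against 72.3 and 9.57 FPKM in WT, while Trp53 and Mdm4 are lower in CD38 KO.

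The promoters of several of these genes hold the letters of a p53 half-site. They are shown here because the genes that hold them include the main feedback and arrest genes. RefSeq windows of GRCm38.p6, from 250 bases before to 50 after a transcription start, were found for 27 of the 35 genes and not for Pmaip1, Perp, Tnfrsf10b, Trp53inp1, Zmat3, Xpc, Ddb2 and Rrm2b. The p53 half-site consensus, a palindrome of 10 bases that reads alike on both strands, stood without mismatch in at least 1 window of 11 of the 27 genes (40.7%). It stood in 8.16% of the 9890 tested genes with a window and in 8.36% of all 32851 windows. Of the 10 windowed genes that rose, 6 held it: Mdm2, Ccng1, Cdkn1a, Aen, Polk and Sesn1. The genes Plk2, Phlda3, Sesn2 and Eda2r rose without a match in this window. The other matches were in Trp53, Ppm1d, Bax, Ei24 and Gadd45a, none of which passed the test. The 35 genes were chosen largely as known p53 targets, so these shares do not bear on the difference between genotypes. In the stretches below, written 5′ to 3′ on the gene's strand, capitals mark the half-site.
Mdm2, chr10:117710915-117710964, minus strand: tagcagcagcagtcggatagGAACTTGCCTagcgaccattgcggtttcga
Ccng1, chr11:40755442-40755491, minus strand: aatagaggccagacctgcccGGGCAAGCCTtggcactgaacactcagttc
Cdkn1a, chr17:29090886-29090957, plus strand: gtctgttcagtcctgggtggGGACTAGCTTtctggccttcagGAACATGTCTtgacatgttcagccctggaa
Sesn1, chr10:41887246-41887295, plus strand: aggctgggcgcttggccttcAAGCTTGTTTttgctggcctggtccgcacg
Trp53, chr11:69580264-69580313, plus strand: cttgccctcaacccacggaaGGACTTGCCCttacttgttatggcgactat
Relative to the transcription start of its own window, the match begins at base -186 in Mdm2, -185 in Ccng1, -173 in Sesn1 and -75 in Trp53. The Sesn1 stretch lies inside the annotated gene, which begins at base 41809935, so its window belongs to a later start within the gene. The Polk stretch, bases 96519389 to 96519437 and not printed, also lies inside its minus-strand gene, which begins at base 96542579. Cdkn1a was the member with 2 matches in one window, which begin at bases -73 and -51. A match of letters shows no binding, and the well studied p53 sites of Mdm2, in its first intron, lie outside these windows. The printed Cdkn1a stretch lies just before base 29090976, where the annotated gene begins.

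Among the 9 arrest genes 2 rose and none fell, where 8.00% of all tested genes were called higher and 6.35% lower. Cdkn1a (chromosome 17, 29090976 to 29100727), which encodes p21, the inhibitor of cyclin-dependent kinases through which p53 halts the cycle, was at 248 and 230 FPKM in CD38 KO and at 189 and 175 FPKM in WT. Its groups did not overlap, with means of 239 ± 12.5 and 182 ± 9.80 FPKM (SD, n = 2 each), a 1.31-fold ratio (log2 change 0.39, SE 0.06, limma adjusted p = 0.012). Plk2, a polo-like kinase induced by stress, was at 38.0 and 33.8 FPKM in CD38 KO and at 23.2 and 24.5 FPKM in WT, a 1.51-fold rise (log2 change 0.57, SE 0.07, limma adjusted p = 0.00654). Cdkn1a lost its call without CD38 KO 1, CD38 KO 2 or WT 2 (limma adjusted p up to 0.103), and Plk2 without CD38 KO 1 or WT 1 (up to 0.0593). Neither was called without a filter on low values (limma adjusted p = 0.0825 and 0.0613).

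The senescence-marking inhibitors Cdkn2a and Cdkn2b did not pass the test. Cdkn2a, whose single gene ID covers both p16Ink4a and p19Arf so that the 2 products cannot be told apart here, was at 13.9 and 17.6 FPKM in CD38 KO and at 15.1 and 14.8 FPKM in WT. The CD38 KO libraries lay on either side of the WT libraries, and the log2 change was 0.06 (95% interval -0.21 to 0.33, limma adjusted p = 0.742). Cdkn2b, which encodes the related inhibitor p15, was at 91.1 and 94.6 FPKM in CD38 KO and at 102 and 96.0 FPKM in WT. Its log2 change was -0.09, with an interval of -0.22 to 0.03. The stress sensors Gadd45a and Gadd45b changed by 0.03 and -0.12, Btg2, an antiproliferative factor, by 0.21, Zmat3, an RNA-binding protein, by 0.17 and the kinase Plk3, at under 2 FPKM in every library, by 0.19. Of these 5, Btg2 and Zmat3 had intervals above 0 (0.02 to 0.41 and 0.02 to 0.31) but limma adjusted p of 0.141 and 0.117. The median over the 9 arrest genes was 0.17.

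Death genes gave 7 of the 14 rises. Of 13 such genes 7 rose and none fell, with a median log2 change of 0.30. Pmaip1 (chromosome 18, 66458533 to 66465565) encodes NOXA, a protein of the BH3-only class that neutralises MCL1, and had the largest change of the 35 genes. It was at 27.9 and 30.3 FPKM in CD38 KO and at 9.37 and 9.77 FPKM in WT. The means were 29.1 ± 1.68 and 9.57 ± 0.283 FPKM (SD, n = 2 each), a 3.04-fold ratio (log2 change 1.51, SE 0.07, limma adjusted p = 0.000153). The position of Pmaip1 was 170 among the 13064 tested genes ordered by log2 change, CD38 KO over WT.

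The next changes in this role were those of Perp and Aen. Perp, a membrane protein of desmosomes and of p53-dependent death, was at 7.65 and 8.23 FPKM in CD38 KO and at 4.53 and 3.93 FPKM in WT, a 1.88-fold rise (log2 change 0.78, SE 0.09, limma adjusted p = 0.00552). Aen (chromosome 7, 78895854 to 78911209), a nuclease that cuts DNA in dying cells, was at 78.7 and 77.4 FPKM in CD38 KO and at 51.7 and 47.1 FPKM in WT. It rose 1.58-fold (log2 change 0.65, SE 0.06, limma adjusted p = 0.00202). Phlda3, a repressor of the survival kinase AKT, was at 300 and 290 FPKM in CD38 KO and 223 and 207 FPKM in WT, and it rose 1.37-fold (limma adjusted p = 0.00448).

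Smaller rises were seen for a stress adaptor and for death receptors. Trp53inp1, which assists p53 and autophagy, was at 58.5 and 59.6 FPKM in CD38 KO and at 47.6 and 47.8 FPKM in WT (log2 change 0.30, limma adjusted p = 0.00986). Tnfrsf10b, the mouse receptor for the death ligand TRAIL, was at 20.9 and 20.7 FPKM in CD38 KO and 17 and 16.5 FPKM in WT (0.30, limma adjusted p = 0.0208). Eda2r, the X-linked receptor of ectodysplasin A2, was at 20.8 and 21.7 FPKM in CD38 KO and 17.6 and 16.8 FPKM in WT (0.29, limma adjusted p = 0.0293). In all 3 the libraries of a genotype lay close together and the genotypes did not overlap. Fas, another death receptor, differed by 0.07 with an interval of -0.06 to 0.19.

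Bax, Bbc3 and Apaf1, of the same mitochondrial route to death, did not pass the test. Bax, the pore-forming protein of the outer mitochondrial membrane, was at 156 and 149 FPKM in CD38 KO and 144 and 139 FPKM in WT, a log2 change of 0.10 (95% interval -0.01 to 0.22, limma adjusted p = 0.20). Bbc3, which encodes PUMA, the other BH3-only protein of the p53 response, changed by -0.14 with an interval of -0.38 to 0.09, and its groups overlapped. Apaf1, the scaffold of the apoptosome, was at 6.31 and 7.34 FPKM in CD38 KO and at 5.41 and 4.52 FPKM in WT. Both CD38 KO values of Apaf1 were above the WT values, but the change of 0.39 (95% interval 0.11 to 0.67) missed the threshold (limma adjusted p = 0.0778). Over the alternatives its limma adjusted p ran between 0.0342, the 1 setting that called it, and 0.295. Ei24, of the endoplasmic reticulum, changed by 0.11 and Dram1, a lysosomal regulator of autophagy at under 3 FPKM, by -0.22.

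Pmaip1 and Aen were called in all 4 fits without 1 library. Perp and Phlda3 lost their calls without CD38 KO 1 or CD38 KO 2 (limma adjusted p up to 0.0765 and 0.0675) and without a filter on low values (0.0551 and 0.0517). Trp53inp1, Tnfrsf10b and Eda2r lost theirs in all 4 (up to 0.0783, 0.134 and 0.16), and without a filter Tnfrsf10b and Eda2r were at limma adjusted p = 0.0551 and 0.0816. Eda2r was also not called with moderation without trend (0.0575).

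Of the 5 repair genes 1 rose, where 8.00% of all tested genes were called higher. Polk (chromosome 13, 96480690 to 96542579), the polymerase kappa that copies past damaged bases, was at 17.8 and 17.2 FPKM in CD38 KO and at 12.5 and 11.4 FPKM in WT, a 1.46-fold ratio (log2 change 0.51, SE 0.07, limma adjusted p = 0.00774). The genotypes were well apart in Polk. Its call ended without CD38 KO 1, CD38 KO 2 or WT 2 (limma adjusted p up to 0.0964) and without a filter on low values (0.0538). Xpc and Ddb2, which find damage for nucleotide excision repair, changed by 0.07 and 0.01, with intervals of -0.09 to 0.23 and -0.24 to 0.27. Ercc5, an excision nuclease, changed by 0.20 and Rrm2b, the p53-induced subunit of ribonucleotide reductase, by -0.01, with limma adjusted p of 0.189 and 0.967. Ddb2 lies partly under Acp2 on the opposite strand, at 41.1 and 38.7 FPKM in CD38 KO and 33.3 and 34.1 FPKM in WT. Whether the counting used strand is not given in the sources used here.

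Both sestrins, stress proteins that restrain mTORC1 signalling and oxidants, rose among the 3 metabolic genes. Sesn1 was at 31.7 and 32.9 FPKM in CD38 KO and at 26.9 and 25.7 FPKM in WT (log2 change 0.29, SE 0.05, limma adjusted p = 0.0223). Sesn2 was at 46.2 and 46.3 FPKM in CD38 KO and at 39.5 FPKM in both WT libraries (0.22, SE 0.04, limma adjusted p = 0.0279). These were narrow but regular differences, in which replicates nearly coincided. Tigar, a phosphatase that lowers glycolytic flux, changed by 0.04 with an interval of -0.14 to 0.23. Neither sestrin was called in any of the 4 fits without 1 library (limma adjusted p up to 0.133 for each), without a filter on low values (0.0704 and 0.0525) or with moderation without trend (0.0553 and 0.0758).

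**Figure D4:**
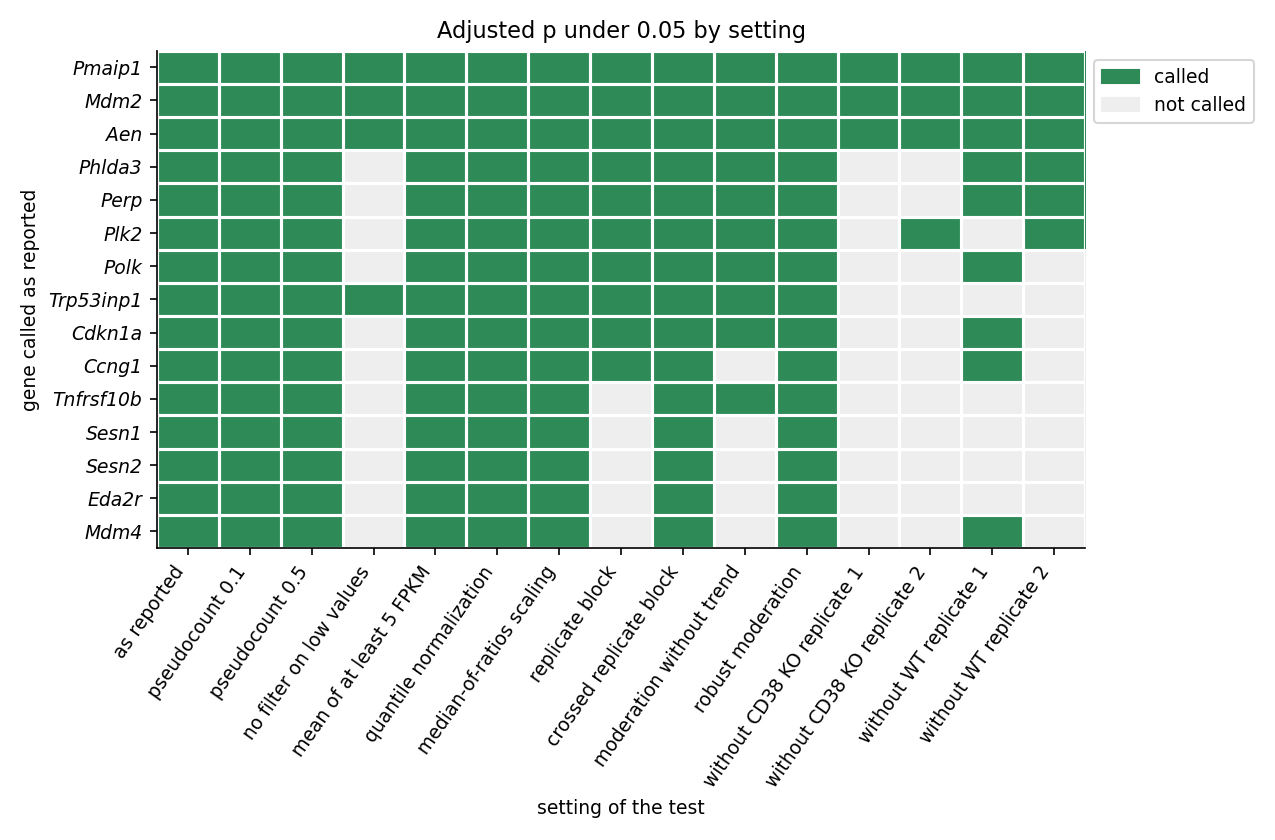
The 15 genes called as reported (rows, by adjusted p) and whether each had a limma adjusted p under 0.05 in each setting of the test (columns). Mdm2, Pmaip1 and Aen were called in all of the 14 alternatives, while the fits that leave out 1 library called 3 to 8 of the 14 higher genes.

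Without CD38 KO 1, CD38 KO 2, WT 1 and WT 2, the higher calls among the 35 genes numbered 3, 4, 8 and 6, and over all tested genes 306, 342, 458 and 407. In each such fit a genotype left with 1 library borrows its spread from the genotype that keeps 2. The median log2 change over the 35 genes stayed between 0.19 and 0.22 in these fits.

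Other genes of the p53 network were counted in lists that hold none of the 35. The counts stand beside 8.00% called higher and 6.35% called lower over all tested genes. Whether any of these short lists departs from those shares was not tested. Of 21 tested further p53 targets 5 rose and 1 fell, at a median log2 change of 0.05. Dcxr, a xylulose reductase, was at 316 FPKM in both CD38 KO libraries and at 247 and 226 FPKM in WT. Gtse1, a microtubule-associated protein that restrains p53, was at 14.4 FPKM in both CD38 KO libraries and at 10.4 FPKM in both WT libraries, and Psrc1, also microtubule-associated, at 81.8 and 78.8 FPKM in CD38 KO and 59.9 and 64.3 FPKM in WT. Their limma adjusted p were 0.00691, 0.00815 and 0.0103. Kitl, the stem cell factor, fell to 2.64 and 1.92 FPKM in CD38 KO, against 5.24 and 4.87 FPKM in WT (limma adjusted p = 0.0113). Rps27l and Slc19a2, named after their values were seen, were the other 2 that rose, by 0.25 and 0.29. Each of the 6 lost its call in 2 or more of the fits without 1 library: Dcxr without CD38 KO 1 or 2, Psrc1 also without WT 1, Kitl without CD38 KO 2, WT 1 or WT 2, and Gtse1, Rps27l and Slc19a2 in all 4 (limma adjusted p up to 0.183).

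Among 16 tested regulators of p53, 2 rose and none fell, with a median of 0.00. The share called over all tested genes was 8.00% higher and 6.35% lower. Chek2, the checkpoint kinase that phosphorylates p53 after double-strand breaks, was at 10.4 and 11.4 FPKM in CD38 KO and at 4.57 and 5.81 FPKM in WT, a 2.10-fold rise (log2 change 0.95, SE 0.11, limma adjusted p = 0.00565). Rchy1, a ubiquitin ligase of p53, was at 41.4 and 41.7 FPKM in CD38 KO and at 29.9 and 32.3 FPKM in WT (0.41, limma adjusted p = 0.0082). Neither gene overlapped between genotypes. The kinases Atm and Atr did not pass the test, with log2 changes of -0.04 and -0.15. Without CD38 KO 1 or CD38 KO 2 neither Chek2 nor Rchy1 was called, and Rchy1 was not called without WT 1 (limma adjusted p up to 0.0831 and 0.0883).

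Of 16 tested genes of the BCL2 family and the caspases 4 rose and none fell (median 0.07). Bcl2a1b, a survival protein of blood cells, was at 18.5 and 17.1 FPKM in CD38 KO and at 1.60 and 0.875 FPKM in WT, with near-identical copies in the mouse genome that make its counting uncertain. The survival genes Bcl2l1 and Mcl1 rose by 0.30 and 0.32 and the BH3-only gene Bcl2l11 by 0.37 on the log2 scale. Their limma adjusted p were 0.00986, 0.0166 and 0.0372. Bcl2a1b was called in every fit without 1 library and the other 3 in none (limma adjusted p up to 0.0844, 0.0969 and 0.197). Caspases 3, 7, 8 and 9 did not pass the test.

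Excision and bypass repair genes outside the 35 numbered 19 tested, with none higher and 2 lower (median -0.06). Over all tested genes 8.00% were called higher and 6.35% lower. Ercc1, the partner of the nuclease XPF, fell to 17.2 and 15.1 FPKM in CD38 KO, against 30.2 and 33.1 FPKM in WT (log2 change -0.93, SE 0.08, limma adjusted p = 0.00194), and stayed called in every fit without 1 library. Lig1, the replicative DNA ligase, was at 1.19 and 1.36 FPKM in CD38 KO and at 2.72 and 2.48 FPKM in WT, a call (limma adjusted p = 0.0206) that ended in all 4 such fits (up to 0.103). Ercc1 was thus lower while Polk was higher. Of 6 tested CDK inhibitors and RB family genes outside the 35, limma called 0, and 2 had an unadjusted p under 0.05.

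Senescence markers outside the 35 did not move one way. Of 15 tested 2 rose and 5 fell, with a median of -0.10. Ccl2, a chemokine of the senescent secretory pattern, fell to 159 and 149 FPKM in CD38 KO, against 252 and 260 FPKM in WT, and Glb1, the lysosomal galactosidase behind the senescence stain, to 13.4 and 13.2 FPKM, against 19.8 FPKM in both WT libraries. Mmp12, a protease of macrophages, rose to 3.41 and 3.52 FPKM in CD38 KO, against 0.184 and 0.474 FPKM in WT. With a WT mean of 0.329 FPKM, Mmp12 reached the mean needed for testing only through its CD38 KO values. The limma adjusted p of Ccl2, Glb1 and Mmp12 were 0.00072, 0.00301 and 0.00187, and all 3 were called in each fit without 1 library. Igfbp3, a binding protein of insulin-like growth factors, fell by 0.39 (limma adjusted p = 0.00602), a call lost without CD38 KO 2, WT 1 or WT 2 (up to 0.0709). Igfbp7, another such binding protein, and Cxcl1, a chemokine, were named after their values were seen, and fell too (log2 changes -0.42 and -0.37). Igfbp7 was called in none of the fits without 1 library, and Cxcl1 was called in 1, without WT 2 (limma adjusted p up to 0.128 and 0.115).

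Of 20 genes of cell division 11 reached a mean of 1 FPKM, and of these none rose and 2 fell. Ccnd1, which encodes the G1 cyclin D1 and gave most of the list's summed level, was at 75.9 and 104 FPKM in CD38 KO and at 104 and 89.3 FPKM in WT, and was named after its values were seen. Their median log2 change was -0.39. Top2a, a topoisomerase of dividing cells, was at 2.35 and 1.98 FPKM in CD38 KO and at 3.95 and 4.66 FPKM in WT, and Birc5, which encodes survivin, at 0.850 and 0.783 FPKM in CD38 KO and 1.80 and 2.11 FPKM in WT. Both calls (limma adjusted p = 0.0146 and 0.0243) ended in all 4 fits without 1 library (up to 0.101 and 0.107). Birc5 and the further list genes Mcm5, Foxm1 and Ccnb1 had CD38 KO means of 0.817, 0.689, 0.889 and 0.837 FPKM. They reached the mean of 1 FPKM needed for testing only through their WT values. The fall of Birc5 and the list median rest in part on that selection. Mki67, the proliferation marker, was under the filter at 0.244 and 0.219 FPKM in CD38 KO and 0.614 and 0.665 FPKM in WT.

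**Figure D5:**
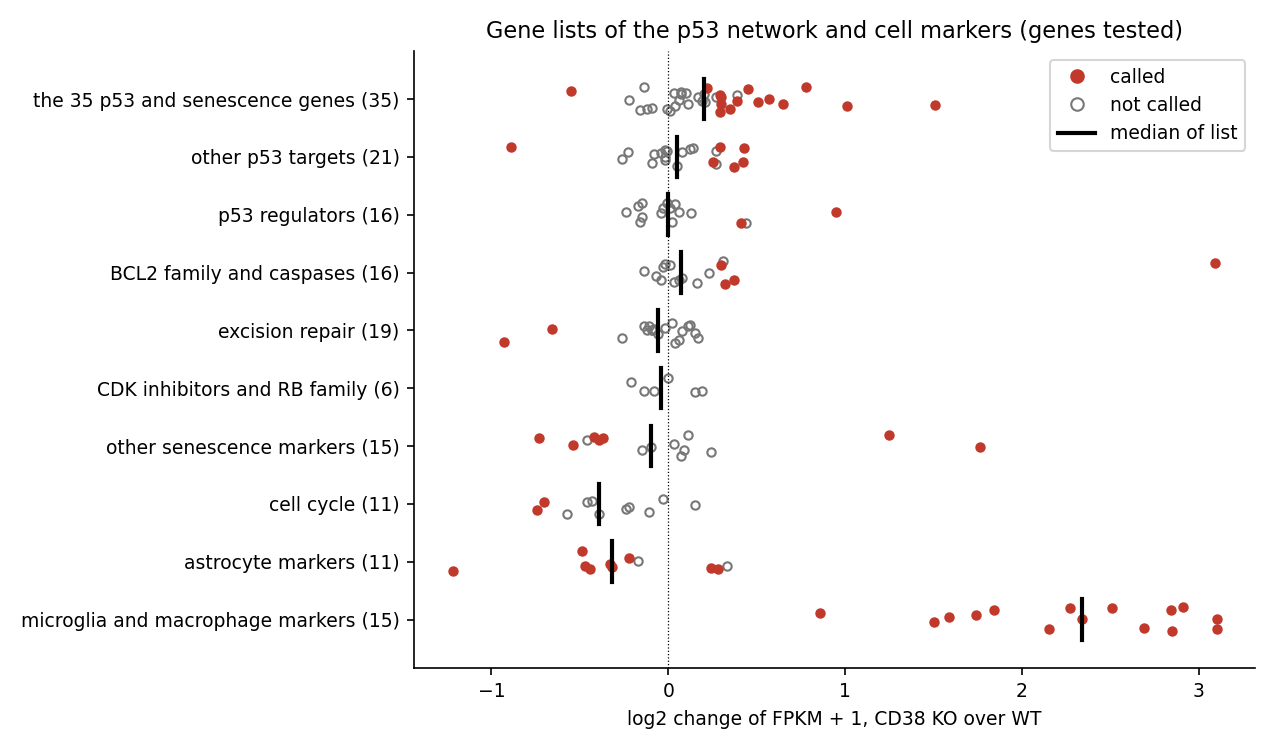
Log2 change of FPKM + 1, CD38 KO over WT, of each tested gene (points) in the 35 genes, in the other lists of the p53 network and in 2 cell marker lists, with list medians as black bars and called genes filled. The median is 0.20 for the 35 genes, between -0.39 and 0.07 for the other network lists and 2.34 for microglia and macrophage markers.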

How the data were processed

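RNA of 4 libraries was analysed. The kit in the labels' protocols selects polyA RNA and keeps strand. Cufflinks 2.2.1, STAR 2.7.0f, bcl2fastq 2.17 and the build GRCm38 appear in the submitters' processing notes. The authors deposited FPKM for each gene, per the file headers. Neither the annotation release nor any scaling across samples is given there. Gene positions came from GENCODE M21, which held 55140 of 55467 IDs. Depth was estimated from steps of 1 fragment in genes with a single transcript; 91.7% to 92.4% of values under 10 fragments lay within 0.1 of a whole number. Precision is limited by 2 libraries per genotype.

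Genes were tested if their mean was 1 FPKM or more, with limma 3.58.1 (R 4.3.3) on log2(FPKM + 1), moderation with trend, genotype as the only term, Benjamini-Hochberg adjustment at 0.05; fold changes on this scale understate those of low genes. The script was tested on simulated data. Other steps used Python 3.11.15, pandas 2.3.3, numpy 2.4.6 and matplotlib 3.10.9. Fold ratios are of mean FPKM. No count test was run, since the values are not counts. Alternatives were other values added before the log, filters, scalings, a replicate block, moderation settings and each library left out.

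The 35 genes, the other lists and the tests were chosen with earlier results of these data known. All 35 genes were named; full values were given for called genes, for Trp53, Cdkn1a, Mdm2, Ccng1, Bax and Cdkn2a, and for the 3 uncalled genes of smallest p. Other lists gave up to 4 called genes of smallest p, and a few named after their values were seen. One gene of the other lists is counted but not reported here.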

Additional observations from a re-analysis of the deposited data

How the results depend on the processing

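All 15 called genes kept their direction in the 14 alternatives, and 3 of them, Mdm2, Pmaip1 and Aen, were called in every one. Without a filter on low values, which brings 26654 genes into the adjustment, 4 of the 35 genes were called higher and 0 lower, with 430 and 312 over all genes. Leaving out 1 library called 3 to 8 higher and 0 to 1 lower, with 306 to 458 and 225 to 284 over all genes. Moderation without trend called 10 higher and 0 lower, with 818 and 619 over all genes. The replicate numbers do not pair the samples by any label. With the replicate number as a block, 10 of the 35 genes were higher and 0 lower, and 610 and 427 over all genes (Mdm4, Tnfrsf10b, Eda2r, Sesn1 and Sesn2 were not called). Deviations of same-numbered libraries correlated at -0.161 across genes, so a block that crosses the numbers was added after seeing the data, and it called 15 and 1, and 1102 and 859 over all genes. Other values added before the log, a filter at 5 FPKM (32 genes left), both scalings and robust moderation called 14 or 15 higher and 1 lower. Small uncalled changes turned sign: Ddb2 to -0.05 and Tigar to -0.0024 with quantile normalization, and in fits without 1 library Ddb2 (-0.07 to 0.10, also -0.01), Cdkn2a (-0.09 to 0.22), Gadd45a (-0.05 to 0.12) and Rrm2b (-0.08 to 0.07). The cause was not tested. Intervals as wide as those of Plk3 (-0.16 to 0.54) and Dram1 (-0.51 to 0.07) set the limit for genes near 2 FPKM.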

Other observations

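Markers of other cell types that such cultures can hold were low or changed in parts. Of 7 tested genes of the oligodendrocyte lineage none rose and 2 fell, Pdgfra, the receptor of precursor cells, to 1.60 and 1.24 FPKM in CD38 KO, against 3.37 and 4.84 FPKM in WT, and the transcription factor Olig2 to 14.0 and 15.9 FPKM, against 19.9 and 19.2 FPKM. Their 10 genes summed to 166 and 179 FPKM in CD38 KO and 204 and 199 FPKM in WT. The limma adjusted p were 0.0149 and 0.0312, and the calls ended without CD38 KO 1, CD38 KO 2 or WT 2, and that of Olig2 also without WT 1 (up to 0.12 and 0.148). Of the oligodendrocyte lineage sums, Olig1 alone gave 112 and 125 FPKM in CD38 KO and 141 and 134 FPKM in WT. Islr, a secreted protein of mesenchymal cells, fell to 141 and 152 FPKM in CD38 KO, against 417 and 406 FPKM in WT, as the 1 of 6 tested fibroblast and meningeal markers that was called (limma adjusted p = 8.47e-05). The other 5, Col1a1, Col1a2, Col3a1, Dcn and Pdgfrb, had positive log2 changes of 0.03 to 0.64 that did not pass the test. Of 4 tested neuronal markers Stmn2, a regulator of microtubules, rose to 54.8 and 56.1 FPKM, against 30.7 and 28.8 FPKM in WT, and Gad1, which makes GABA, fell to 46.1 and 41.7 FPKM, against 71.4 and 81.5 FPKM in WT (limma adjusted p = 0.000411 and 0.00334). Gad1 lost its call without CD38 KO 2 (0.0581). The fibroblast list of 8 genes summed to 212 and 195 FPKM in CD38 KO and 451 and 453 FPKM in WT, of which Islr alone gave 141 and 152 FPKM in CD38 KO and 417 and 406 FPKM in WT. The neuronal list of 10 genes summed to 133 and 137 FPKM in CD38 KO and 136 and 147 FPKM in WT. The 6 endothelial markers summed to 2.11 and 1.96 FPKM in CD38 KO and 1.02 and 0.766 FPKM in WT, and none reached the filter.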
